A study of Mus musculus with 6 samples.

Results

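The 9 genes described here handle retinoids and were followed in whole pancreas of mice at postnatal day 7. The members were chosen by name, as the rows of the count files for Stra6, Rbp4, Ttr, Crabp1, Crabp2, Aldh1a1, Aldh1a2, Rara and Rarb, and all 9 were found among the 23337 gene symbols of each library. They were picked with their levels in these same libraries in view, so their difference between the groups is given as a description and carries no test. Control animals were NMRI mice with the genotype Ptf1a cre/+. Mutant animals were NMRI mice that carried Ptf1a cre/+ together with the transgene CAG-loxP-STOP-loxP-Prox1-LacZ, which makes Prox1 and LacZ once Cre has cut out its loxP-flanked stop. Both groups therefore carry Cre at 1 allele of Ptf1a, a gene active in pancreas progenitors and later in acinar cells, and the transgene is switched on in cells of that descent. There were 3 libraries in each group. The series' design text calls the controls pools and the mutants single pancreata, while the extraction protocol speaks of single organs, so if the controls were pools, pooling and genotype cannot be told apart.

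Retinol, or vitamin A, travels in blood on retinol-binding protein 4 (Rbp4), which is held in a complex with transthyretin (Ttr). STRA6 is a membrane receptor that takes retinol from this carrier into cells. Inside the cell retinol is oxidised to retinaldehyde, retinaldehyde dehydrogenases (Aldh1a1, Aldh1a2) make retinoic acid from it, and the cellular binding proteins Crabp1 and Crabp2 carry the acid. Retinoic acid then binds the nuclear receptors Rara and Rarb, and Rarb is itself a known target gene of this signal. In the embryo retinoic acid from mesenchyme and mesothelium is known for its part in the growth of the dorsal pancreas.

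Short stretches of DNA before the starts of the genes on which the results turn are shown first, read from the RefSeq promoter table on GRCm38.p6, the assembly behind mm10. The table held 15 windows of 300 bases, each with 250 bases before a start and 50 after it, for 7 of the 9 members. Ttr and Crabp2 had no entry. Windows were searched on both strands for the 6-base unit of a retinoic acid response element, with the usual form AGGTCA and the variants spelled AGTTCA, then also GGGTCA, and lastly GGTTCA, and for 2 such units in direct repeat with a spacer of 1, 2 or 5 bases. A direct repeat contains 2 units, so these searches overlap. A unit was in 43.7% of all 32851 windows of the table. Direct repeats with a spacer of 1, 2 and 5 bases were in 0.222%, 0.268% and 0.0974% of them.

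Of the members' windows 6 held a unit and 1 held a direct repeat, with a spacer of 5 bases, before the start of Rarb. It is shown because Rarb is the receptor gene described below, with the 2 units in capitals, at chr14:16575506-16575534 on the minus strand, in a stretch that is also exon of a longer annotated transcript.
Rarb: ggaagGGTTCAccgaaAGTTCActcgcat

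Stra6 had 4 listed starts, and the 60 bases before the first and second of them lie at chr9:58129028-58129087 and chr9:58129289-58129348 on the plus strand. They are shown because Stra6 had the widest difference among the members, and the deposited counts do not separate its starts. Neither of their 300-base windows held a unit, nor did that of the fourth start, and the window of the third held 1.
Stra6 first start: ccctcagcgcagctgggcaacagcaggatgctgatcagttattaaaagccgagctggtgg
Stra6 second start: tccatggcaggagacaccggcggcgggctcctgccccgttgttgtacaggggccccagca

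Rbp4 had 2 listed starts on the minus strand of chromosome 19, with the 60 bases before them at chr19:38125322-38125381 and chr19:38124812-38124871. Capitals mark a unit read on the other strand, found before the first start.
Rbp4 first start: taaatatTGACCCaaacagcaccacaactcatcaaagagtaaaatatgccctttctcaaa
Rbp4 second start: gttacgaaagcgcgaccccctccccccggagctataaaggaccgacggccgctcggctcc

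Aldh1a1 and its neighbour Aldh1a7, a close copy of it on chromosome 19, are shown side by side because their levels are compared below. The stretches are the 100 bases before the second listed start of Aldh1a1, at chr19:20601868-20601967 on the plus strand, and before the start of Aldh1a7, at chr19:20727557-20727656 on the minus strand. Set side by side without gaps, they were identical at 94 of 100 bases, and capitals mark the 6 that differ. Over the whole 300-base windows 59.0% of bases were identical, and at the first listed start of Aldh1a1 25.67%, so the pair shown is the more alike.
Aldh1a1: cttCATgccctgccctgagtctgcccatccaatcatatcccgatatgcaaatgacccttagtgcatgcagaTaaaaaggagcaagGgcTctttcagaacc
Aldh1a7: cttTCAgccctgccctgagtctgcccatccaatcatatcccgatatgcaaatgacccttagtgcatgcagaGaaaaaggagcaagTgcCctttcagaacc

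Total counts per library lay between 7304727 and 10773223, so 1 CPM, the unit of counts relative to the TMM-scaled library size, stood for 6.65 to 10.5 counts. Prox1, the product of the transgene, was at 7.84 to 10.8 CPM in controls against 25.5 to 31.3 CPM in mutants and rose (log2 fold change 1.67 ± 0.15 SE, edgeR quasi-likelihood adjusted p = 0.000239). Ptf1a, the locus with Cre in both groups, was at 19.8 ± 1.85 CPM (SD, n = 3) in controls and 14.9 ± 0.529 CPM in mutants (edgeR adjusted p = 0.161). Each of the 11 acinar markers listed was present in both groups, and edgeR called 0 higher and 1 lower (0 and 4 at an unadjusted p under 0.05, 0 and 3 by DESeq2). The most abundant, Ctrb1 and Cel, encode a chymotrypsinogen and a lipase of the pancreatic juice. Cel was the 1 called lower, at 66222 CPM on average in controls against 34864 CPM in mutants (edgeR adjusted p = 0.00881). Control 1 stood apart with 7110 counts of Xist, which did not exceed 4 counts elsewhere. Its summed count of Y-linked genes was 0, against 1132 to 1463 in the other 5 libraries. Control 1 thus had the counts of female tissue and the other 5 those of male tissue. The part of sex in the differences between libraries was not tested. Mutant 2 stood apart with a summed 42.1 CPM of lymphocyte markers, against 1.52 to 16.9 CPM in the other 5 libraries. Over all 13017 genes that passed the count filter, edgeR called 2.06% at an adjusted p under 0.05, with 0.545% higher and 1.51% lower in mutants. At an unadjusted p under 0.05 it was 12.8% of these genes, and DESeq2 called 2.58% at an adjusted p under 0.05.

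Of the 9 members 7 passed the count filter, and Crabp1 and Crabp2 were too low for it. Groups were apart, with no overlap between libraries, in 3 of those 7, against 19.0% of all genes tested. Rbp4 was the 1 with higher mutants (9.13% of all genes tested) and Stra6 and Aldh1a1 were the 2 with lower mutants (9.86%). Nothing is read from these counts, since the members were chosen with this contrast in view. In the other 4, Ttr, Aldh1a2, Rara and Rarb, the groups overlapped, and the median log2 fold change of the 7 was 0.05.

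**Figure D1:**
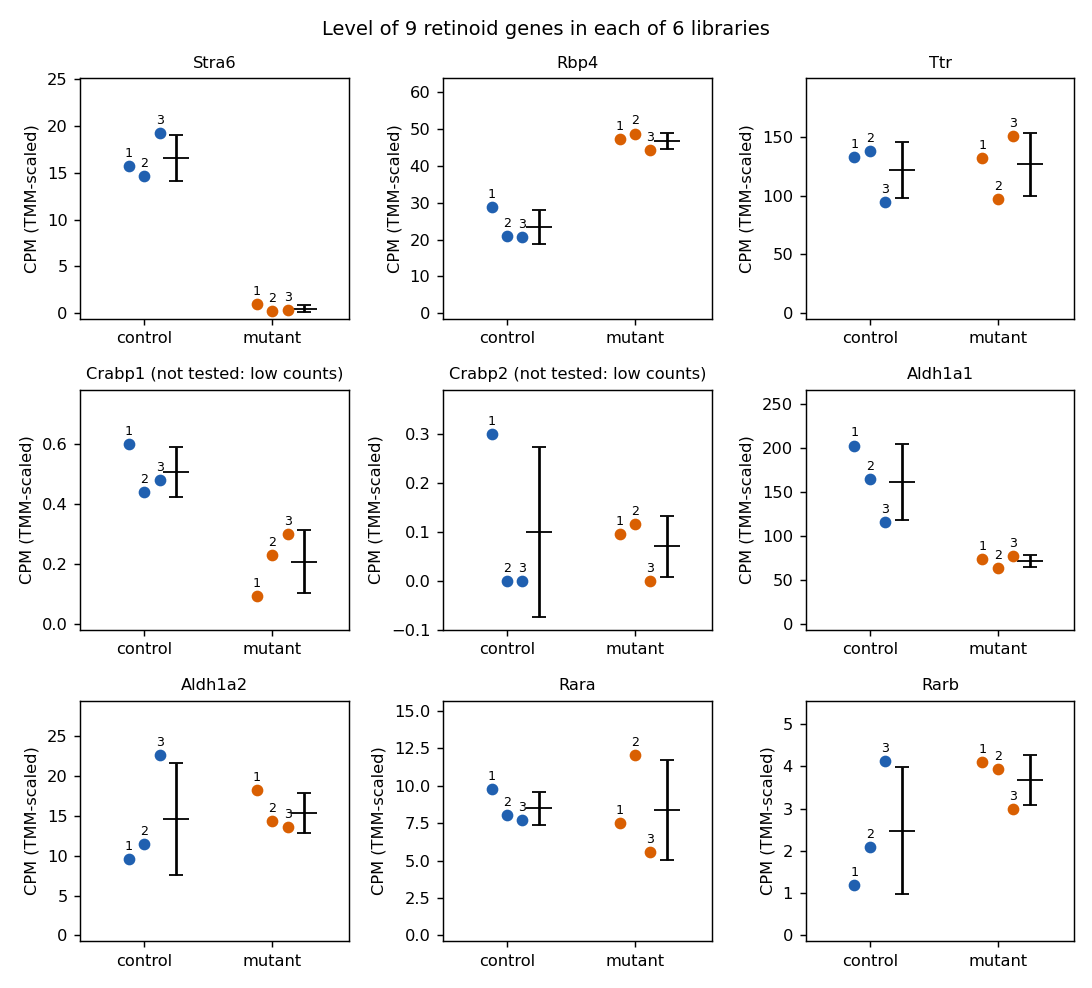
Level of each of the 9 member genes in CPM on TMM-scaled library sizes, with 1 panel a gene, 1 point a library (the number is the replicate), and the mean with its SD (n = 3) beside the points. Stra6 sits between 14.7 and 19.3 CPM in controls and under 1 CPM in mutants, Rbp4 and Aldh1a1 separate in opposite directions, and Ttr, Aldh1a2, Rara and Rarb overlap.

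Stra6 encodes the receptor that takes up retinol from its plasma carrier. The gene lies on chromosome 9 from 58063788 to 58153996 (GRCm38, plus strand, protein-coding). Its level was 15.8, 14.7 and 19.3 CPM in controls 1 to 3 and 0.952, 0.232 and 0.299 CPM in mutants 1 to 3. The 3 controls lay close together and far above each mutant library, and mutant 1 was the highest of the mutants. The mutant values rest on 10, 2 and 3 counts, against 105, 133 and 201 counts in controls. Pooled over libraries the level was 32.7 times higher in controls, with an exact 95% interval of 19.6 to 58.9 that covers counting error only. The fitted log2 fold change was -4.98 ± 0.33 (SE), the 6th lowest among the 13017 genes fitted, and it was -5.88 without mutant 1. That place is a description only, since Stra6 was chosen with this contrast in view. In whole tissue, fewer cells of a type and less RNA per cell cannot be told apart, here and below.

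A second membrane receptor for Rbp4 is encoded by Stra6l, listed in the files under its older symbol 1300002K09Rik and found on chromosome 4 from 45848664 to 45887008 (plus strand). It was at 1.20, 1.10 and 1.06 CPM in controls against 4.47, 2.09 and 3.19 CPM in mutants, so each mutant library was above each control, and mutant 2 was the lowest of its group. The gene was singled out after its values were seen. Its log2 fold change was 1.54 ± 0.36 (SE) and missed the threshold (edgeR adjusted p = 0.0632), with 8 to 11 counts per control library and 18 to 47 per mutant library. Over 14 alternative settings its adjusted p by edgeR or DESeq2 ranged from 0.0198 to 0.279, and 1300002K09Rik passed in 4 of them. It passed by edgeR without mutant 2 (adjusted p = 0.0198), with library totals in place of TMM (0.0354), with a robust dispersion (0.0473) and without control 1 and mutant 2 (0.0219).

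Rbp4 encodes the plasma carrier of retinol, best known as a product of liver and fat, and lies on chromosome 19 from 38116629 to 38125281 (minus strand). It was at 28.9, 21.0 and 20.8 CPM in controls against 47.2, 48.9 and 44.3 CPM in mutants. Each mutant library was above each control, and the coefficient of variation was 4.90% in mutants against 19.6% in controls. The mean was 1.99 times higher in mutants (46.8 ± 2.29 against 23.5 ± 4.62 CPM, SD, n = 3), with a fitted log2 fold change of 1.00 ± 0.13 (SE). Over all 14 alternatives this value lay between 0.92 and 1.17.

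Fat and liver are the usual sources of Rbp4, and their markers are given beside it. Of 12 adipocyte markers 8 passed the count filter, and of those 0 rose and 2, Fabp4 and Lgals12, fell by edgeR (0 and 6 at an unadjusted p under 0.05, 0 and 2 by DESeq2). Their summed level was 131 to 267 CPM in controls against 66.6 to 95.6 CPM in mutants. The most abundant of them were Fabp4 and Car3, a fatty acid carrier and a carbonic anhydrase of fat cells. Fabp4 alone was at 39.2, 49.8 and 43.9 CPM in mutants 1 to 3. Adipoq, Cfd, Lep and Retn, picked out with their values known, were at 0 in mutants 1 and 3. Pparg and Acvr1c, picked out likewise, had higher means in mutants. Of 16 liver markers only 3 passed the count filter, Trf, Ahsg and Alb, and of those 1, Ahsg, rose and 0 fell by edgeR (3 and 0 at an unadjusted p under 0.05, 1 and 0 by DESeq2). The summed level of all 16 was 66.8 to 82.9 CPM in controls against 101 to 178 CPM in mutants. The most abundant liver markers were Trf, the transferrin gene, at 58.6 to 74.8 CPM in controls against 72.8 to 95.4 CPM in mutants, and Ahsg, the fetuin-A gene, at 0 to 0.442 CPM and 14.3 to 48.8 CPM. Alb, the albumin gene, picked out with its values known, stood at 12.3, 7.18 and 7.69 CPM in controls against 15.5, 13.0 and 37.5 CPM in mutants, so each mutant library was above each control, as for Rbp4 (log2 fold change 1.31, edgeR adjusted p = 0.1505). The other 13 liver markers did not pass the count filter, with Apoa2, Fga, Apoh, Cps1, Cyp2e1, Cyp3a11 and Serpina1c at 0 in all 3 controls and 0 of the 16 at 0 in all 3 mutants. Mutant 3 was the highest library for each of the 16 except Ahsg and Cps1, which were highest in mutant 1. Fga, for example, was at 0, 0 and 0.998 CPM in mutants 1 to 3. Rbp4 was at 47.2, 48.9 and 44.3 CPM in mutants 1 to 3, values too close together for their order to be read. The part of fat and liver cells in the level of Rbp4 was not tested.

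Ttr, which encodes transthyretin, is made in liver and choroid plexus and also in islet cells. It was at 133, 138 and 94.3 CPM in controls against 132, 97.5 and 150 CPM in mutants. The ranges overlapped almost wholly, with means of 122 ± 23.9 and 127 ± 26.9 CPM (SD, n = 3). The fitted log2 fold change of 0.06 ± 0.18 (SE) turned to -0.10 without control 3 and -0.08 without mutant 3. The most abundant islet markers were Ins2, an insulin gene, and Gcg, the glucagon gene, which was at 1108, 930 and 621 CPM in controls against 1116, 1022 and 1310 CPM in mutants. Control 3 was the lowest library and mutant 3 the highest for both Ttr and Gcg. Ins2 did not have this order, with 2333, 1303 and 1587 CPM in controls against 1357.5, 1259.9 and 1247 CPM in mutants, of which mutant 3 was the lowest. Of 17 islet markers 14 passed the count filter, and of those 0 rose and 0 fell by edgeR over all genes (0 and 3 at an unadjusted p under 0.05, 0 and 0 by DESeq2). Their sum was 3264 to 5332 CPM in controls against 3372 to 3650.5 CPM in mutants. The part of islet and liver cells in the level of Ttr was not tested. Rbp4 and Ttr, whose proteins travel together in plasma, thus had group means that differed 1.99 times and 1.04 times.

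**Figure D2:**
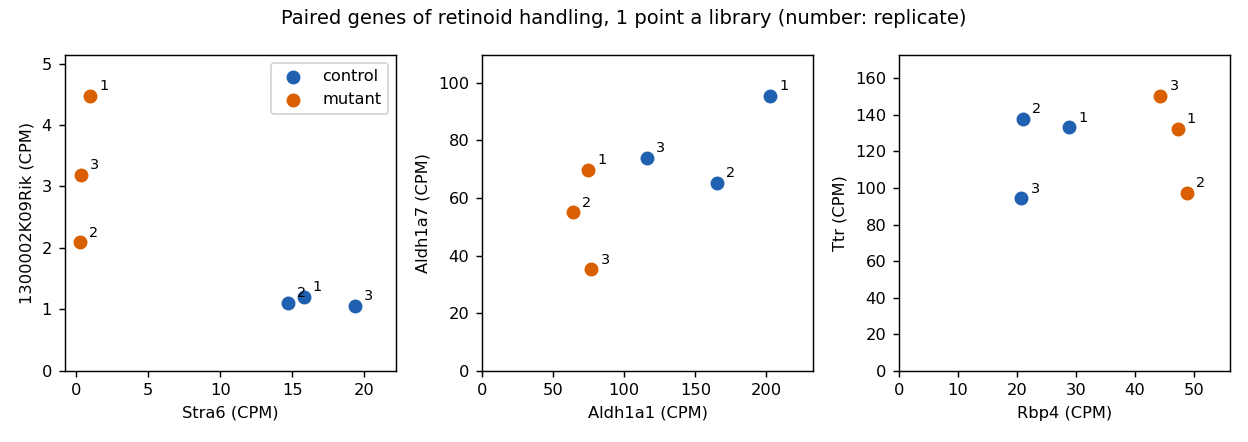
Pairs of genes plotted against each other in CPM, with 1 point a library and the replicate number beside it. Controls and mutants sit in opposite corners for Stra6 and 1300002K09Rik, Aldh1a7 overlaps between groups where Aldh1a1 does not, and the groups separate along Rbp4 and overlap along Ttr.

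Crabp1 and Crabp2 encode the cellular carriers of retinoic acid and were close to absent from these libraries. Crabp1 had 4, 4 and 5 counts in controls and 1, 2 and 3 in mutants, which is 0.601, 0.442 and 0.481 CPM against 0.0952, 0.232 and 0.299 CPM. Its pooled level was 2.42 times higher in controls, but the exact 95% counting interval of 0.858 to 7.76 includes 1. Crabp2 had 2, 0 and 0 counts in controls and 1, 1 and 0 in mutants. A count of 0 allows up to 3 counts, or 0.286 to 0.451 CPM depending on the library, so a difference in Crabp2 was not detectable at this depth. Fabp5, a fatty acid carrier that can also bind retinoic acid, was far more abundant, at 30.7 CPM on average in controls and 34.4 CPM in mutants.

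Aldh1a1 encodes a retinaldehyde dehydrogenase and lies on chromosome 19 from 20492715 to 20643465 (plus strand). It was at 203, 165 and 116 CPM in controls against 74.6, 64.1 and 77.0 CPM in mutants. Each mutant library was below each control, and the controls varied more, with a coefficient of variation of 26.9% against 9.56%. The mean was 2.24 times higher in controls (161 ± 43.3 against 71.9 ± 6.87 CPM, SD, n = 3), with a fitted log2 fold change of -1.16 ± 0.18 (SE). The value lay between -1.35 and -0.89 over the alternatives and was -0.97 without control 1, the library with the highest level. The same library held the highest sum of islet markers, 5332 CPM against 3264 and 3489 CPM in controls 2 and 3. In mutants 1 to 3 that sum was 3650.5, 3372 and 3587 CPM. From control 2 to control 3 Aldh1a1 decreased and the islet sum increased. Control 1 was also the library with the counts of female tissue. The part of islet cells and of sex in the level of Aldh1a1 was not tested.

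Aldh1a7, whose start region is printed beside that of Aldh1a1, was at 95.5, 65.3 and 74.0 CPM in controls against 69.9, 55.1 and 35.2 CPM in mutants. The groups overlapped, and its log2 fold change of -0.55 ± 0.22 (SE) missed the threshold (edgeR adjusted p = 0.334). Aldh1a1 made up 61.1% to 71.6% of the summed CPM of the pair in controls and 51.6%, 53.8% and 68.6% in mutants 1 to 3, so its share overlapped between the groups. Of all stretches of 50 bases in transcripts of Aldh1a1, 3.06% also occur in another gene, the closest being Aldh1a7. For the other members that share was 0%, except 0.23% in Rara.

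Aldh1a2 encodes the dehydrogenase of mesenchyme and mesothelium and lies on chromosome 9 from 71215789 to 71296243 (plus strand). It was at 9.62, 11.5 and 22.6 CPM in controls against 18.2, 14.3 and 13.6 CPM in mutants. Mutants lay inside the control range, and control 3 stood above each of the other 5 libraries. Its fitted log2 fold change of 0.05 ± 0.28 (SE) was 0.53 without control 3 and -0.16 without control 1. Retinoic acid synthesis has a further enzyme, Aldh1a3, which was low in both groups (1.95 and 2.12 CPM on average).

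Rara encodes the receptor found in most tissues and lies on chromosome 11 from 98927818 to 98974942 (plus strand). It was at 9.77, 8.07 and 7.69 CPM in controls against 7.52, 12.1 and 5.59 CPM in mutants, and both the highest and the lowest library were mutants. Its log2 fold change of -0.02 ± 0.26 (SE) was 0.20 without mutant 3, -0.35 without mutant 2 and 0.16 with library totals in place of TMM.

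Rarb, the receptor gene with the direct repeat before its start, lies on chromosome 14 from 16430839 to 16819156 (minus strand). It was at 1.20, 2.10 and 4.13 CPM in controls against 4.09, 3.95 and 2.99 CPM in mutants. Control 3 lay just above the highest mutant, and controls 1 and 2 lay below each mutant library. The log2 fold change of 0.51 ± 0.38 (SE) was 1.12 without control 3 and 0.23 without control 1. Of the exon bases of Rarb 34.1% overlap Top2b on the other strand, and Top2b was at 68.1 ± 3.00 CPM in controls against 70.3 ± 11.4 CPM in mutants (SD, n = 3). The strand setting of the counting is not given in the sources used here, so reads of Rarb and Top2b cannot be told apart in that stretch.

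Aldh1a2 and Rarb were lowest in control 1 and highest in control 3, and 7 of 8 mesothelial markers had the same order of the 3 controls, Upk1b being the exception. The sum of 8 mesothelial markers was 106, 165 and 220 CPM in controls 1 to 3 and 155, 131 and 133 CPM in mutants. The 2 most abundant of these markers were Upk3b, at 32.2, 51.4 and 68.0 CPM in controls against 44.8, 37.4 and 37.0 CPM in mutants, and Msln, at 22.4, 29.9 and 40.0 CPM against 31.4, 29.5 and 25.4 CPM. Wt1, a transcription factor of mesothelium picked out with its values known, stood at 5.71, 13.3 and 16.6 CPM in controls against 15.1, 11.3 and 11.4 CPM in mutants. Each of the 8 was present in both groups, and 0 rose and 0 fell by edgeR (0 and 1 at an unadjusted p under 0.05, 0 and 0 by DESeq2). Of 12 fibroblast and stellate cell markers 6 had this order, of the 12 adipocyte markers 9, of 8 macrophage markers 5 and of 7 lymphocyte markers 5. It was 2 of 11 for acinar, 2 of 4 for lymphatic endothelial, 1 of 10 for duct and 1 of 6 for nerve and glia markers. In the islet, liver, neutrophil, blood endothelial and erythroid lists it was 0. The share of all genes with this order was not counted, so these counts have no background beside them. The summed level of the fibroblast and stellate cell markers, led by Col3a1 and Dcn, was 3336, 4584 and 5281 CPM in controls 1 to 3 and 4933, 3564 and 4514 CPM in mutants, most of it from Col3a1 in controls (1865, 2993 and 3467 CPM). The part of any of these cell types in the levels of Aldh1a2 and Rarb was not tested.

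**Figure D3:**
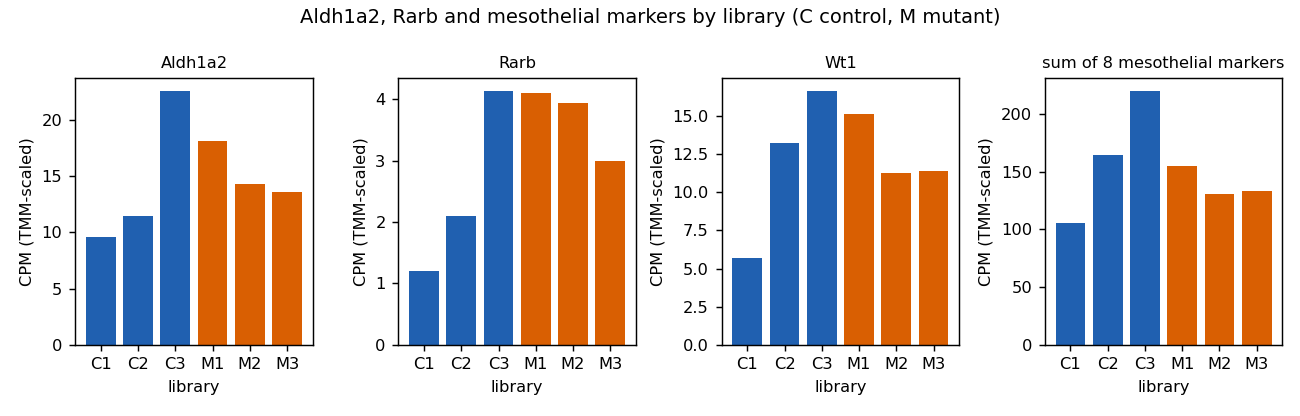
Aldh1a2, Rarb, Wt1 and the sum of 8 mesothelial markers in CPM, with 1 bar a library. In all 4 panels control 1 is the lowest and control 3 the highest of the controls, and the mutants lie closer to each other than the controls do.

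Levels of different genes were set side by side per kilobase of annotated exon. In controls the order was Ttr at 103 ± 20.2 CPM per kb (SD, n = 3), Aldh1a1 at 32.7 ± 8.78, Rbp4 at 17.5 ± 3.44, Aldh1a2 at 6.43 ± 3.10, Stra6 at 2.85 ± 0.415, Rara at 1.95 ± 0.255, Crabp1 at 0.633 ± 0.104, Rarb at 0.471 ± 0.285 and Crabp2 at 0.0758 ± 0.131. The ranges over control libraries did not overlap between neighbours in this order, except for Crabp1 with Rarb, and those of Rarb and Crabp2 nearly touched (0.228 and 0.227 CPM per kb). In mutants Rbp4, at 34.8 ± 1.71 CPM per kb, stood above Aldh1a1, at 14.6 ± 1.39, and Stra6, at 0.0848 ± 0.0682, was the 8th of the 9 genes where it was the 5th in controls. Ranges of Rbp4 and Aldh1a1 were apart in both groups, while in mutants those of Crabp1 and Stra6 overlapped, as did those of Stra6 and Crabp2. Exon length was taken over all annotated transcripts, so a gene that uses short transcripts is placed too low on this scale.

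**Figure D4:**
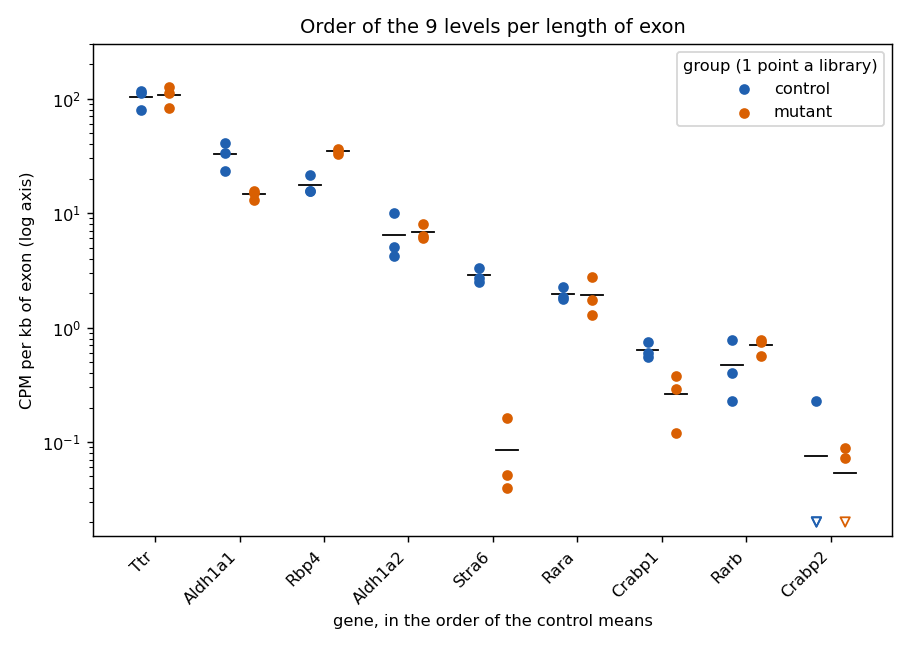
CPM per kilobase of exon on a log axis, with genes in the order of the control means, 1 point a library and a line at the group mean. Open triangles at the lower edge stand for libraries at 0. Rbp4 and Aldh1a1 change places between the groups, and Stra6 is in the 5th place in controls and the 8th in mutants.

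Other genes of the pathway were taken from a list arranged in 10 roles. All 68 were found in the files, 43 passed the count filter, and by edgeR over all genes 0 of the 43 rose and 1 fell. That is 2.33% of those tested, against the 2.06% of all genes tested, so the list was near the background. At an unadjusted p under 0.05 there were 4 higher and 3 lower, and DESeq2 called 1 higher and 1 lower. Over all genes tested the shares by these 2 criteria were 12.8% and 2.58%. The median log2 fold change of the 43 was 0.01 and that of all genes tested 0.00, and 39 of the 43 lay within 0.5 of 0.

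Ces1d was the gene that fell, and it encodes a carboxylesterase that can release retinol from its stored esters. It was at 51.9, 46.2 and 54.8 CPM in controls against 11.5, 17.8 and 24.5 CPM in mutants, with no overlap. The log2 fold change was -1.51 ± 0.22 (SE, edgeR adjusted p = 0.00511), and the call was kept in all 14 alternatives, with adjusted p up to 0.0323. Ces1d is also a gene of fat cells. Adipoq, a hormone of fat cells picked out with its values known, stood at 3.01, 10.1 and 14.6 CPM in controls against 0, 2.44 and 0 CPM in mutants. Lgals12, with Fabp4 1 of the 2 fat cell markers that fell by edgeR, was at 28.0, 26.0 and 22.2 CPM in controls. In mutants Lgals12 was at 12.9, 10.1 and 10.7 CPM. From control 1 to control 3 Adipoq increased and Lgals12 decreased. The part of fat cells in the fall of Ces1d was not tested. Among the other storage genes, Dgat1, which makes esters, was at 8.91 and 8.26 CPM on average, and Lrat, the main enzyme that forms retinyl esters, picked out with its values known, was at 0, 0.442 and 0.0961 CPM in controls against 0, 1.16 and 0 CPM in mutants.

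Of the 10 uptake and carrier genes 8 were tested, and 0 rose and 0 fell by edgeR, with 1 at an unadjusted p under 0.05. The most abundant were Lpl, a lipase that frees lipid and retinyl esters from lipoproteins, at 183 and 201 CPM on average in controls and mutants, and Cd36, a lipid transporter, at 84.9 and 68.2 CPM. Of the 20 genes that interconvert retinol and retinaldehyde 12 were tested, and 0 rose and 0 fell by edgeR, with 2 at an unadjusted p under 0.05. Their log2 fold changes lay between -0.40 and 0.49. Adh5 (58.4 and 58.2 CPM on average) and Dhrs3, which returns retinaldehyde to retinol (40.5 and 31.4 CPM), were the most abundant. The carotene-cleaving genes Bco1, listed as Bcmo1 (0.509 and 0.761 CPM), and Bco2 (0.330 and 0.174 CPM) were too low to be tested.

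The enzymes that break down retinoic acid were too low to be tested as well. Cyp26a1, often used as a sign of retinoic acid signalling, was at most at 0.116 CPM in any library. Cyp26b1 was between 0.200 and 0.812 CPM, and Cyp26c1 was at 0 in all 6 libraries, which allows up to 0.451 CPM in the shallowest. Of the other nuclear receptors of the pathway, Rxra was at 23.5 CPM on average in both groups and Rxrb at 21.5 and 21.0 CPM. Of the coregulators, Ncor1, a corepressor that binds receptors without ligand, was at 80.3 and 83.4 CPM on average. By edgeR 0 of the 3 receptors and 0 of the 8 coregulators tested passed, with 0 and 1 at an unadjusted p under 0.05.

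Of the 10 textbook targets of retinoic acid 6 were tested, and 0 rose and 0 fell by edgeR, with 1 at an unadjusted p under 0.05. Tgm2, a transglutaminase, was at 75.2 and 63.4 CPM on average and Rarres2, the chemerin gene, at 61.6 and 70.4 CPM. Of the exon bases of Rarres2 33.6% overlap Lrrc61 on the other strand, and of those of Tgm2 13.7% overlap Gm20412. The limit given for Rarb holds there as well. Rarres1, picked out with its values known, stood at 1.05, 1.99 and 2.60 CPM in controls against 9.52, 8.35 and 1.40 CPM in mutants. Mutant 3 lay inside the control range, and the log2 fold change of 1.71 ± 0.59 (SE) missed the threshold (edgeR adjusted p = 0.238). By DESeq2 Rarres1 passed (adjusted p = 0.0362), and by edgeR without mutant 3 as well (adjusted p = 0.0133).

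**Figure D5:**
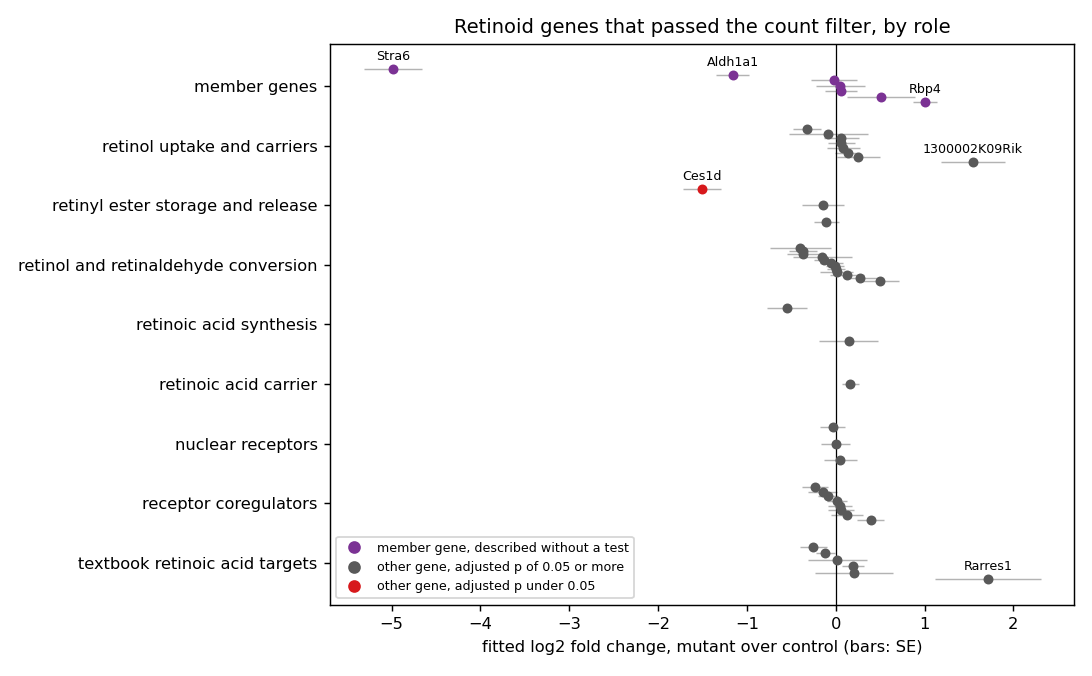
Fitted log2 fold change (mutant over control) with its SE for the 7 members and the 43 other pathway genes that passed the count filter, by role. Ces1d, at -1.51, is the 1 other pathway gene past the threshold, and 1300002K09Rik and Rarres1 lie above 1 without passing.

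The genes whose profile over the 6 libraries was most like that of a member were found by the root-mean-square difference of log2 CPM after each gene's mean was removed, among 10035 genes with a mean of at least 5 CPM. For Stra6 they were Pga5 (0.59 on the log2 scale), Aqp12 (0.63), Zg16 (0.72), Gp2 (0.81) and Nr1h4 (0.85). Pga5 encodes a pepsinogen, Aqp12 an aquaporin of acinar cells, Zg16 and Gp2 proteins of the zymogen granule and Nr1h4 the bile acid receptor FXR. Pga5 was at 33.6 to 39.4 CPM in controls against 2.10 to 2.44 CPM in mutants, and Nr1h4 at 12.2 to 16.6 CPM and 0.499 to 1.74 CPM. For Rbp4 they were Arhgap42 (0.14), Hspa4l (0.16) and Atf5 (0.17), which encode a GTPase regulator, a heat shock protein and a stress-related transcription factor. For Aldh1a1 they were Pdx1 (0.15), a transcription factor of pancreas progenitors and beta cells, Lgals12 (0.16), a galectin of fat cells, and Cml1 (0.20). Likeness over 6 libraries in 2 groups is mostly a like difference between the groups and is given as a description.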

How the data were processed

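The authors deposited raw counts per gene symbol, 1 file per library. Per the submitters' processing notes, the build was mm10 and the tools were STAR, cutadapt 1.13, DESeq2 and HTSeq 0.6.1p1. What each did, the annotation, the strand setting and the treatment of multiple matches were not given in the sources used here. From these counts edgeR 4.0.16 in R 4.3.3 was run with TMM scaling, filterByExpr and the quasi-likelihood test of mutant against control without covariates, with Benjamini-Hochberg adjustment over 13017 genes at 0.05. DESeq2 1.42.0 was an alternative, beside other scalings, filters, a robust dispersion, a replicate block and leaving out libraries. CPM and log2 CPM (prior count 2) were computed on the scaled library sizes. The SE is the absolute log2 fold change over the square root of F. The fit was tested on simulated data with the same dispersion for every gene and no library set apart. That is simpler than these libraries, so it does not show how the fit behaves on them.

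Members and lists were chosen with earlier results of these data known. Named were the members, Prox1 and Ptf1a, each pathway gene past the threshold, the 2 most abundant genes of each role and of each marker list set beside a member, and for non-overlapping members the 3 most alike genes (5 for Stra6). A gene that this rule also names is not reported here. Other named genes are said to have been singled out. Older symbols were matched through RefSeq synonyms, and coordinates and exon lengths came from GENCODE M21 on GRCm38. Chi-square per degree of freedom between libraries of a group was 5.83 to 20.5. The highest values, 20.5 and 18.9, were those of control 1 with controls 2 and 3. All 6 libraries were kept. The labels do not name litters. The p-values weigh the difference between groups against the spread between libraries within groups, estimated with help from all genes tested. If the controls were pools, that spread is not of the same kind in both groups.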

Additional observations from a re-analysis of the deposited data

How the results depend on the processing

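Over 14 alternatives Stra6 and Aldh1a1 stayed below 0 and Rbp4 and Rarb above 0, while Ttr, Aldh1a2 and Rara changed sign in some. With 1 library left out, log2 fold changes ranged from -5.88 to -4.68 for Stra6, -0.16 to 0.53 for Aldh1a2 and 0.23 to 1.12 for Rarb. Over all genes, edgeR's counts of 71 higher and 197 lower became 27 to 99 and 98 to 202 with 1 library left out, 190 and 130 with library totals alone, and 157 and 327 without control 1 and mutant 2, a setting chosen after seeing the data. Library totals alone moved the median of all genes to 0.17, and the share of calls that were higher from 26.5% to 59.4%. They moved the log2 ratio of summed acinar markers to 0.0198 (from -0.15), macrophage to 0.43 (from 0.26) and blood endothelial to 0.21 (from 0.05). The count of higher pathway genes was 0 to 1 with 1 library left out, 1 with library totals, DESeq2's test or a robust dispersion, and 1 higher and 2 lower without control 1 and mutant 2. Tgm2, at -0.49, was the second lower one. Uncalled pathway genes changed sign with library totals, to 0.0602 for Dgat1, 0.16 for Adh5, 0.17 for Rxra and 0.13 for Rxrb, and Rxrb had 0.0509 without control 1 and mutant 2. With 1 library left out the ranges were -0.22 to 0.13 for Rxra, -0.17 to 0.0427 for Rxrb, -0.0578 to 0.0407 for Adh5, -0.0692 to 0.18 for Ncor1 and -0.0611 to 0.32 for Aldh1a3. With library totals the median of all genes moved up from 0.0045, and Dgat1, Adh5, Rxra and Rxrb moved up with it. The cause of the changes with libraries left out was not tested. Replicate numbers did not pair the libraries (correlations of deviations 0.08, 0.03 and -0.07 for numbers 1 to 3), and a replicate block gave 241 calls against 268, with 53 higher and 188 lower.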
